A study of Mus musculus with 5 samples.

Results

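The genes described here are 6 ligands of the epidermal growth factor (EGF) family, Areg, Ereg, Btc, Hbegf, Tgfa and Epgn, and 3 receptors of the ERBB family, Egfr, Erbb2 and Erbb3. They were taken by symbol, 9 rows of the 55276 in the deposited table. RNA was measured in mouse primary cells labelled PMN-MDSC, for polymorphonuclear myeloid-derived suppressor cell. The series title concerns galectin-1, STING activity in tumors, metastasis and the recruitment of these cells. Such cells belong to the neutrophil lineage, expand in hosts with tumors and dampen T cell responses. Lung gave 3 libraries, numbered 1, 2 and 3 in the titles, and tumor 2, numbered 2 and 3, all of wild-type genotype. A library was made from a minimum of 2000000 sorted cells, and the labels state 20000000 paired reads for each. The labels name no drug or other agent. Strain, age, tumor model, sort markers and the animal behind each library were not stated in the labels. The p-values therefore describe spread among these libraries, part or all of which could be technical. Values are TPM, transcript shares that are corrected for length and scaled to a total of 1000000 in a library, so levels can be compared between genes but the number of reads behind a value is unknown.

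EGF family ligands are made as membrane-anchored precursors, and proteases of the ADAM family cut them loose to act on nearby cells. The ligands bind receptors that pair up and phosphorylate each other, and the signal runs through adaptor proteins to RAS, the ERK kinases and the PI3 kinase route. EGFR binds most of the ligands described here, ERBB2 has no known ligand of its own and acts as the partner of the others, and ERBB3 binds neuregulins and has little kinase activity. The system is best known for growth and repair of epithelia, and several ligands are also made by activated myeloid cells.

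The libraries differed widely in markers of cell types. Markers said here to have risen or fallen are those called higher or lower in the test described in the next paragraph. Of all tested rows, 31.6% were called higher and 27% lower. The 20 epithelial markers were all detected, and 19 of them rose, with Krt5 the exception. Their sum ranged from 120 to 190 TPM in lung and was 7156 TPM in tumor 2 and 7244 TPM in tumor 3. All 20 pan-leukocyte markers fell, from sums of 16139 to 16843 TPM across lung libraries to sums of 693 and 2174 TPM in tumor. The 16 neutrophil markers, for the lineage of the labelled cell type, all fell. Their sums were 37922 to 63941 TPM across lung libraries, and 1198 and 4003 TPM in tumor. The 8 fibroblast markers summed to 17.5 to 24.1 TPM in lung, 1199.7 TPM in tumor 2 and 220.2 TPM in tumor 3, and 6 of them rose. Of 12 macrophage and monocyte markers 5 rose and 5 fell, of 8 tested mast cell, basophil and eosinophil markers 1 rose and 5 fell, all 8 endothelial markers fell, and of 9 tested alveolar and airway markers 1 rose and 6 fell. Epx, Sftpa1, Lamp3 and Scgb3a2 were listed at 0 in both tumor libraries. In bulk samples, fewer cells of a type and less RNA per cell cannot be told apart, and the part of these cell types in the results below was not tested.

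Of the 9 genes, 8 averaged 1 TPM or more over all libraries and were tested, and 7 of these were called higher in tumor (limma, with an adjusted p under 0.05 and a change of 1.5-fold or more). The background is high, since 31.6% of all 16387 tested rows were called higher and 27% lower. For 6 of the 8 genes the lung mean was under 1 TPM, so they entered the test only through their tumor values, and the count is a description. The tumor values of 8 of the 9 lay above all lung values, as did those of 39.9% of all tested rows. Of the 9, Btc was tested and not called and Epgn was under the filter. Differences below, given with ± SE, subtract the lung mean of log2(TPM + 1) from the tumor mean, a scale that understates changes of genes near 0, and folds are ratios of mean TPM (n = 3 lung, n = 2 tumor).

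**Figure D1:**
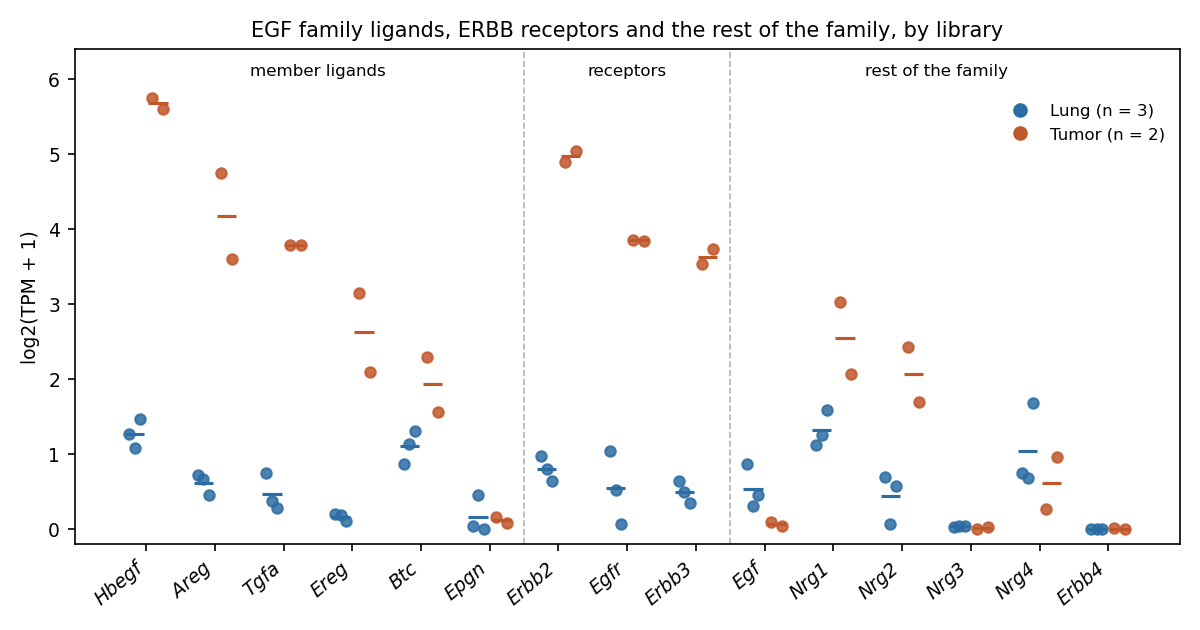
Level of each gene, as log2(TPM + 1), with 1 point per library, blue for the 3 lung and orange for the 2 tumor libraries, and a line at each group's mean. All tumor points lie above all lung points for 8 of the 9 member genes, Epgn being the exception, and tumor points of Areg, Ereg, Btc, Nrg1 and Nrg2 are spread more widely than those of Hbegf, Tgfa and the receptors.

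Hbegf, which encodes heparin-binding EGF-like growth factor, had the highest mean of the 9 genes in both tissues. It was at 1.41, 1.12 and 1.77 TPM in lung libraries 1 to 3 and at 53.0 and 47.5 TPM in tumor libraries 2 and 3. The groups did not overlap, and the tumor libraries were 1.12-fold apart. The mean rose 35.2-fold, a difference of 4.41 ± 0.20 (adjusted p = 0.000901).

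Tgfa, which encodes transforming growth factor alpha, a close relative of EGF and a ligand of EGFR, was at 0.682, 0.295 and 0.213 TPM in lung and at 12.8 TPM in both tumor libraries. It rose 32.2-fold, by 3.32 ± 0.25 (adjusted p = 0.00117).

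Areg encodes amphiregulin, a ligand of EGFR made by epithelia and by several leukocyte types. It was at 0.654, 0.587 and 0.372 TPM in lung, 26.0 TPM in tumor 2 and 11.1 TPM in tumor 3. Both tumor values lay above all lung values, but tumor 2 was 2.34-fold above tumor 3. The mean rose 34.5-fold, by 3.56 ± 0.39 (adjusted p = 0.002).

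Ereg, which encodes epiregulin, a ligand of EGFR and ERBB4, followed the same order of libraries as Areg at a lower level. It was at 0.147, 0.145 and 0.0830 TPM in lung and at 7.91 and 3.27 TPM in tumor, a 2.42-fold gap between the tumor libraries. The mean rose 44.7-fold, by 2.45 ± 0.40 (adjusted p = 0.00534). An antisense gene, Gm19610, overlaps the start of Ereg and was listed at 0 in every lung library and at 2.34 and 1.35 TPM in tumor. The labels do not say whether counting used strand, so reads in the overlap cannot be assigned.

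Btc encodes betacellulin, a ligand of EGFR and ERBB4. It was at 0.829, 1.19 and 1.49 TPM in lung and at 3.91 and 1.96 TPM in tumor. The tumor values lay above the lung values by a narrow margin, with tumor 3 close to lung 3, and the difference of 0.82 ± 0.33 did not pass (adjusted p = 0.0863, 2.51-fold). Without tumor replicate 3 it passed, at 1.19 (adjusted p = 0.037), and without tumor replicate 2 it was 0.46 (adjusted p = 0.219). It also passed when libraries were centred on the pan-leukocyte markers, at 3.29 (adjusted p = 0.00281).

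Epgn, which encodes epigen, a low-affinity ligand of EGFR, was near the bottom of the table's range. It was listed at 0 in lung 3, stood at 0.0299 TPM in lung 1 and 0.371 TPM in lung 2, and was at 0.126 and 0.0648 TPM in tumor. The groups overlapped, and with no filter on low values the difference was -0.04 ± 0.16 (adjusted p = 0.874).

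Epgn, Ereg, Areg and Btc are neighbours on chromosome 5, so 4 of the 6 ligands share 1 locus. By the GENCODE M21 annotation of GRCm38, Epgn lies from 91027464 to 91035215, Ereg from 91074622 to 91093646, Areg from 91139599 to 91148432, all on the plus strand, and Btc from 91357261 to 91402994 on the minus strand. The 375531 bases between the outer ends hold these 4 protein-coding genes and 3 noncoding ones. Along the locus the tumor means ran from 0.0952 TPM for Epgn to 5.59 TPM for Ereg, 18.5 TPM for Areg and 2.94 TPM for Btc. No gene of the locus overlapped in its tumor values with the member next to it. The member ligands outside this locus, Hbegf and Tgfa, had nearly equal values in the 2 tumor libraries. Areg, Ereg and Btc were 2.34-fold, 2.42-fold and 2.00-fold higher in tumor 2. This gap was not confined to the locus. The neuregulin genes Nrg1 and Nrg2, on chromosomes 8 and 18, were 2.23-fold and 1.96-fold higher in tumor 2. The tumor libraries differed in several marker sums too. That of fibroblasts was higher in tumor 2. Those of the pan-leukocyte, neutrophil, macrophage and monocyte, and mast cell, basophil and eosinophil lists were higher in tumor 3. A link between these sums and the ligands was not tested.

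The sequences just upstream of 3 of these neighbours are shown because the genes lie side by side and yet stood at unlike levels. They come from RefSeq (GRCm38.p6) and are described for 6 of the 9 genes, Areg, Btc, Tgfa, Epgn, Egfr and Erbb2. No stretch was found for Ereg or Erbb3, and Hbegf was left out of the search. Capitals mark matches on either strand to short motifs. The TATA box was searched as TATAAA and the GC box as GGGCGG. The cyclic AMP response element was searched by the letters TGACGT, which make up most of it. The AP-1 site was searched as TGANTCA, which shares its first letters with the response element. The Areg stretch is chr5:91139349-91139598 on the plus strand, that of Epgn chr5:91027267-91027463 on the plus strand, and that of Btc chr5:91402995-91403244 on the minus strand, each written 5′ to 3′. Those of Areg and Btc hold the 250 bases before the RefSeq start, and that of Epgn holds 197 bases and stops where the GENCODE gene begins.
Areg: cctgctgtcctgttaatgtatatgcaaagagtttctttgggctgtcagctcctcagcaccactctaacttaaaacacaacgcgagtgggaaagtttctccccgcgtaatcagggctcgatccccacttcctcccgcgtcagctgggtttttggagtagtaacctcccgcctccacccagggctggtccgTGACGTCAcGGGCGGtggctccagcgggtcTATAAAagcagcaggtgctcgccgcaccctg
Epgn: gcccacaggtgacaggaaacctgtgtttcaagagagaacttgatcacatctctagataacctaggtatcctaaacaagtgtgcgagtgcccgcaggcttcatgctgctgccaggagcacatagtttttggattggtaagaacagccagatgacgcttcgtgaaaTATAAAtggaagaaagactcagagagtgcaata
Btc: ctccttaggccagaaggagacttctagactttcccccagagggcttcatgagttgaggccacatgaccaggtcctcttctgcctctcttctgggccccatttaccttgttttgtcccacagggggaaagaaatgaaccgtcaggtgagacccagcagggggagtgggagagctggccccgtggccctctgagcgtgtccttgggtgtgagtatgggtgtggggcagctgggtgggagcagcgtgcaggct
Areg held a TATA box beginning 31 bases before its start, a GC box at 52 bases, and the response element in both orientations at 61 and 59 bases, overlapping as a palindrome. Epgn held a TATA box beginning 86 bases before the RefSeq start, and Btc matched none of the 4 motifs. The last 53 of the 250 Epgn bases lie inside the GENCODE gene, so its box is closer to the GENCODE start. Its distance therefore depends on the annotated start and is not comparable with that of Areg. Among 32851 mouse upstream stretches of 250 bases, 12.4% held the TATA box, 6.47% the response element, 6.75% the AP-1 site and 32.7% the GC box. In the stretches not printed, Tgfa had 2 matches and Egfr 1 match, all to the GC box, and Erbb2 matched none. The matches are a description of letters, and use of these sites was not measured.

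Erbb2, which encodes HER2, had the highest mean of the receptors in both tissues, although Egfr was above it in lung 1. It was at 0.975, 0.742 and 0.560 TPM in lung and at 28.9 and 31.9 TPM in tumor. The tumor libraries lay close together and far above lung, and the mean rose 40.1-fold, by 4.16 ± 0.20 (adjusted p = 0.000901). Erbb2 lies on chromosome 11 from 98412470 to 98437716 on the plus strand.

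Egfr, the receptor for most of these ligands, was at 1.07, 0.442 and 0.0492 TPM in lung and at 13.5 and 13.4 TPM in tumor. Its lung libraries spread more in ratio than those of Erbb2 or Erbb3, from lung 1 at the top to lung 3 near 0, while the tumor libraries were nearly equal. The mean rose 25.9-fold, by 3.31 ± 0.34 (adjusted p = 0.00181). Egfr lies on chromosome 11 from 16752203 to 16918158 on the plus strand.

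Erbb3 was at 0.556, 0.411 and 0.280 TPM in lung and at 10.6 and 12.3 TPM in tumor. It rose 27.6-fold, by 3.14 ± 0.23 (adjusted p = 0.00114). As for Areg, Ereg, Tgfa, Egfr and Erbb2, lung 1 was the highest and lung 3 the lowest of the lung libraries, the order of their epithelial sums (190, 124 and 120 TPM). The fibroblast sums (24.1, 23.5 and 17.5 TPM) and the alveolar and airway sums (596, 183 and 148 TPM) ran in the same order. Hbegf and Btc, the members with the highest lung means, did not follow it and were highest in lung 3, and Epgn was highest in lung 2. Erbb3 lies on chromosome 10 from 128567523 to 128589652 on the minus strand.

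**Figure D2:**
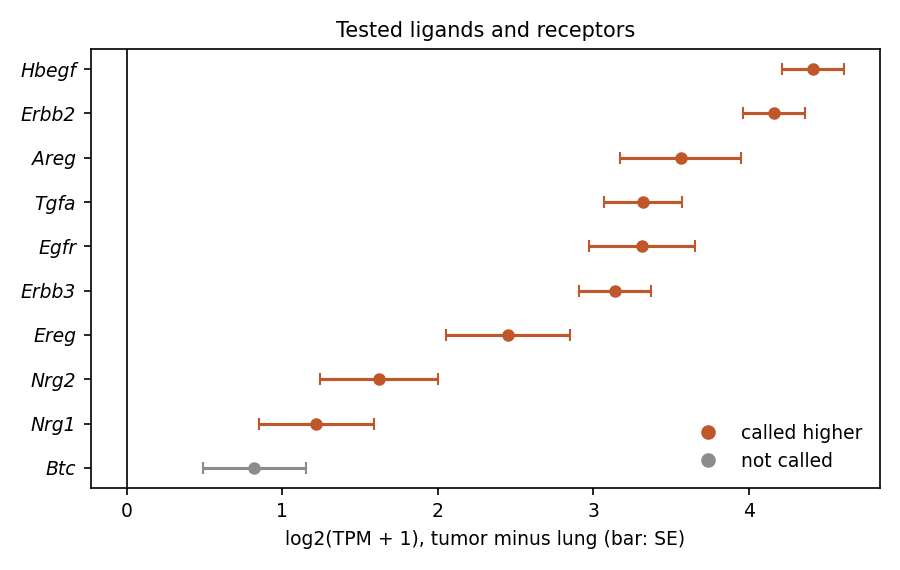
Difference in log2(TPM + 1), tumor minus lung, for the 8 tested members and the 2 tested neuregulins, with bars of 1 SE from limma. Orange points were called higher and Btc, in grey, was not; Hbegf and Erbb2 lie farthest to the right, at 4.41 and 4.16.

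The authors' deposited table called fewer of these genes. Its false discovery rate was under 0.05 for Tgfa (0.04) and Egfr (0.0481), 2 of the 9, against 0.638% of the 34956 rows with a value there. In the authors' deposited table the rate was 0.182 for Erbb2 and 0.19 for Hbegf, which had the smallest adjusted p-values of the 8 tested in limma. Tgfa and Egfr are the 2 genes whose tumor libraries were most nearly equal, 1.00-fold and 1.01-fold apart.

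Added together, the 6 ligands came in lung to 3.75, 3.70 and 3.93 TPM, and in tumor to 104 and 76.7 TPM, 23.8-fold higher by means. The 3 receptors came in lung to 2.60, 1.60 and 0.889 TPM, and in tumor to 53.0 and 57.7 TPM, 32.7-fold higher. Neither sum overlapped between tissues, and both gave an exact two-sided permutation p of 0.1, the smallest that 3 against 2 libraries allow. The ligand sum varied less between lung libraries than the receptor sum, and the ratio of ligand to receptor TPM was 1.44, 2.32 and 4.42 in lung. In tumor it was 1.96 and 1.33, with tumor 3 below every lung library and tumor 2 within their range.

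Hbegf took the highest share of the ligand sum in both tumor libraries. It held 37.5%, 30.1% and 45.02% of it in lung, and 51.1% and 61.9% in tumor. Btc held 22.1%, 32.1% and 38.0% in lung, and 3.77% and 2.55% in tumor, a gap that no library bridged. Areg held 9.47% to 17.5% in lung, and 25.0% and 14.5% in tumor, so its share in tumor 3 lay within the lung range. Of the receptor sum, Erbb2 held 37.5% to 62.9% in lung and 54.5% and 55.4% in tumor, and Egfr 5.53% to 41.1% in lung and 25.5% and 23.2% in tumor. The receptor shares in tumor were thus within the lung range for Erbb2 and Egfr, while Erbb3 was at 21.4% to 31.5% in lung and 20.0% and 21.4% in tumor. These shares rest on low TPM in lung and were not tested.

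**Figure D3:**
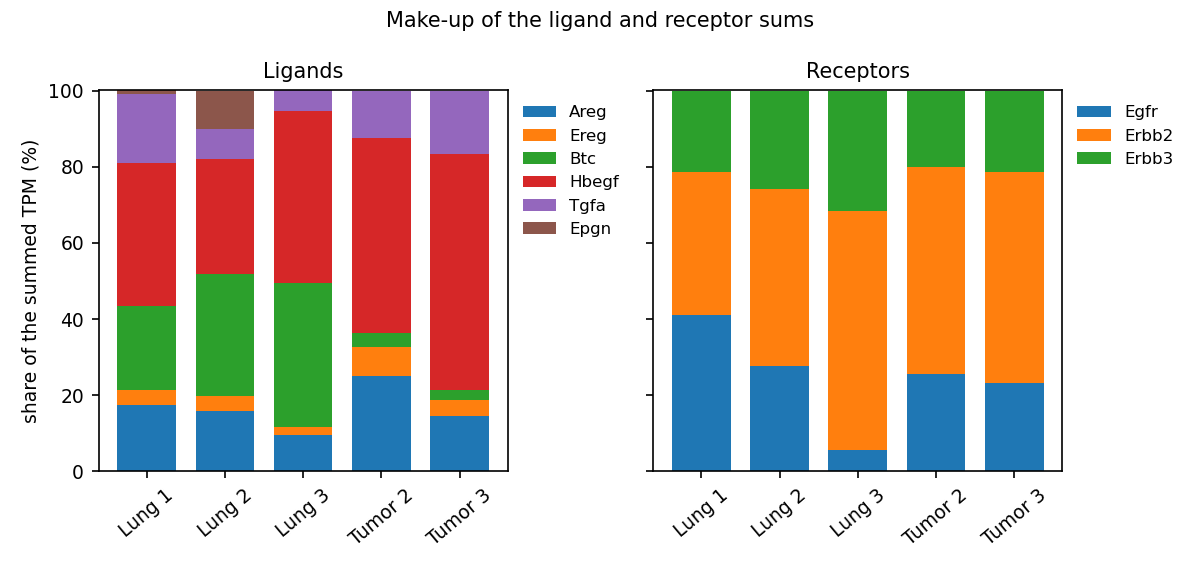
Share of each gene in the summed TPM of the 6 ligands (left) and the 3 receptors (right), in percent, with 1 stacked bar per library. Btc takes 22.1% to 38.0% of the ligand sum in lung and 2.55% and 3.77% in tumor, where Hbegf takes 51.1% and 61.9%; the Egfr part of the receptor bars runs from 5.53% to 41.1% in lung and is 23.2% and 25.5% in tumor.

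Ranked by mean TPM in tumor, the order was Hbegf, Erbb2, Areg, Egfr, Tgfa, Erbb3, Ereg, Btc and Epgn. Areg and Egfr overlapped in their tumor values, as did Ereg and Btc, and the other neighbours in this order did not overlap. In lung the order was Hbegf, Btc, Erbb2, Areg, Egfr, Erbb3, Tgfa, Epgn and Ereg, and each gene overlapped with the next. With 2 libraries in tumor, an order without overlap is a description.

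In the rest of the family, 6 genes, no tumor mean was above the 5.17 TPM of Nrg1. In lung the mean of Nrg1, 1.53 TPM, was above that of Hbegf, 1.43 TPM, the highest of the members there. Nrg1, which encodes neuregulin 1, a ligand of ERBB3 and ERBB4, was at 1.18, 1.39 and 2.02 TPM in lung and at 7.14 and 3.20 TPM in tumor. It rose 3.38-fold, by 1.22 ± 0.37 (adjusted p = 0.0365), a call that ended when any 1 lung replicate or tumor replicate 2 was left out (adjusted p = 0.0715 to 0.118) and with no filter (adjusted p = 0.0772). Nrg2, a further neuregulin, was at 0.619, 0.0551 and 0.486 TPM in lung and at 4.40 and 2.24 TPM in tumor. With a lung mean under 1 TPM, Nrg2 entered the test only through its tumor values. It rose 8.59-fold, by 1.62 ± 0.38 (adjusted p = 0.0175), and it was no longer called when tumor replicate 2 was left out (adjusted p = 0.0581). Like the ligands of the chromosome 5 locus, both neuregulins were higher in tumor 2 than in tumor 3, 2.23-fold for Nrg1 and 1.96-fold for Nrg2.

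Egf, the founding ligand, was under the filter and stood the other way round, at 0.828, 0.238 and 0.368 TPM in lung and at 0.0697 and 0.0331 TPM in tumor. With no filter its difference was -0.47 ± 0.19 and did not pass (adjusted p = 0.136). Nrg4 was at 0.690, 0.600 and 2.20 TPM in lung and at 0.208 and 0.945 TPM in tumor, with overlap. Nrg3 was at no more than 0.0358 TPM in every library. Erbb4, the fourth receptor, was listed at 0 in 4 libraries and was at 0.00823 TPM in tumor 2.

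Of 12 genes tied to ligand shedding and transport 5 rose and 2 fell, where 31.6% of all tested rows were called higher and 27% lower. Their median difference was 0.51 beside 0.018 over all tested genes, and it was 0.31 without tumor replicate 2 and 0.33 with median-of-ratios scaling. When libraries were centred on the pan-leukocyte markers, 11 of the 12 were called higher, as were 72.5% of all tested rows, with a median difference over all rows of 3.072. Adam17, the main protease for Areg, Hbegf, Tgfa and Ereg, was at 35.4, 38.7 and 39.4 TPM in lung and at 42.7 and 37.2 TPM in tumor, with overlap and a difference of 0.07 ± 0.15 (adjusted p = 0.688), which was -0.11 with median-of-ratios scaling, -0.02 without tumor replicate 2 and 3.61 under that centring. Adam10, the main protease for Btc and Egf, was at 39.9, 29.1 and 47.8 TPM in lung and at 45.4 and 44.4 TPM in tumor, also with overlap (adjusted p = 0.441).

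The iRhom partners of ADAM17 went opposite ways in TPM as deposited, although not under the pan-leukocyte centring. Rhbdf1, which encodes iRhom1, was at 1.86, 1.73 and 1.88 TPM in lung and at 65.8 and 35.8 TPM in tumor, a rise of 27.8-fold (4.13 ± 0.29, adjusted p = 0.0011). Rhbdf2, which encodes iRhom2, the form typical of myeloid cells, was at 24.1, 27.1 and 31.8 TPM in lung and at 8.73 and 12.1 TPM in tumor, a fall of 1.34 (adjusted p = 0.00539) that became a rise of 2.10 under that centring. In lung every library had more Rhbdf2 than Rhbdf1, and in tumor both libraries had more Rhbdf1. Adam9 rose from a mean of 12.1 to 46.1 TPM (1.85 ± 0.14), Cnih1, a cargo receptor for the export of EGF family precursors, from 7.31 to 45.4 TPM (2.47 ± 0.19), and Adam12 from 0.689 to 13.7 TPM (3.13 ± 0.25). The remaining riser was the rhomboid protease gene Rhbdl2 (2.82, adjusted p = 0.00219), and the other lower gene was Adam8, a protease of myeloid cells (751.9 to 110.2 TPM, -2.78, adjusted p = 0.00266, or 0.84 under that centring). Adam12 and Rhbdl2 had lung means under 1 TPM and entered the test only through their tumor values.

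Of 24 adaptors and kinases downstream of the receptors 5 rose and 8 fell, beside 31.6% and 27% of all tested rows. Their median was -0.17, and it was -0.35 with median-of-ratios scaling, -0.31 with a filter of 5 TPM and -0.05 when scaled without mitochondrially encoded genes. When libraries were centred on the pan-leukocyte markers 23 were called higher, beside 72.5% of all tested rows. Grb2, the adaptor that links receptors to RAS activation, was at 427, 415 and 382 TPM in lung and at 124 and 148 TPM in tumor, a fall of 1.58 ± 0.16 (adjusted p = 0.00166) that became a rise of 2.03 under that centring. Eps8, a substrate of EGFR, rose from 25.7 to 135 TPM (2.34 ± 0.24, adjusted p = 0.00176), and Hras from 11.95 to 38.8 TPM (1.63 ± 0.17, adjusted p = 0.00187). Shc1, Ptpn11 and Nras also rose, by 0.60, 0.64 and 0.77. The calls of Shc1 and Ptpn11 ended when either tumor library was left out (adjusted p = 0.0527 to 0.103), as did that of Shc1 without lung replicate 1 or 3 (adjusted p = 0.0689 and 0.0579) and that of Ptpn11 without lung replicate 2 (0.57, under 1.5-fold). The number of risers was 3 without either tumor replicate and with median-of-ratios scaling.

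Genes that restrain the pathway, many of which ERK activity can induce, went both ways. Of 20 such genes 12 rose and 5 fell, beside 31.6% and 27% of all tested rows, with a median of 1.05 beside 0.018 over all tested genes. The risers Lrig1, Lrig3 and Cblc had lung means under 1 TPM and entered the test only through their tumor values. Dusp4, a phosphatase that acts on ERK kinases, was at 1.98, 0.663 and 1.41 TPM in lung and at 89.8 and 73.8 TPM in tumor, a rise of 60.7-fold (5.17 ± 0.30, adjusted p = 0.000901). Spry1, a Sprouty inhibitor of RAS signalling, was at 1.99, 1.98 and 2.28 TPM in lung and at 39.9 and 31.2 TPM in tumor (3.56 ± 0.19, adjusted p = 0.000901). For both, the tumor values stood well clear of the lung values.

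Errfi1, which encodes MIG6, a direct inhibitor of EGFR and ERBB2 kinases, was at 20.7, 18.5 and 16.2 TPM in lung and at 138 and 109 TPM in tumor (2.67 ± 0.19, adjusted p = 0.00111). Spred2, another inhibitor of RAS signalling, rose from 2.63 to 27.0 TPM (2.94 ± 0.23, adjusted p = 0.00125). The 5 lower genes were Ptpn1, Ptprj, Lrig2, Dusp5 and Cbl, with differences from -2.80 to -1.03 that were all above 0, from 0.81 to 2.19, under the pan-leukocyte centring. The call of Cbl ended when lung replicate 2, lung replicate 3 or either tumor library was left out (adjusted p = 0.063 to 0.142), and that of Lrig2 without lung replicate 3 or either tumor library (adjusted p = 0.0504 to 0.135). Cbl, the ubiquitin ligase that sends activated EGFR to lysosomes, went from 215.7 to 45.1 TPM (adjusted p = 0.0181), while its relative Cblc, found mainly in epithelia, went from 0.468 to 13.9 TPM (adjusted p = 0.00128). Centred on the pan-leukocyte markers, 18 of the 20 were called higher, beside 72.5% of all tested rows. The number of risers was 9 without lung replicate 2 and 10 without lung replicate 1 or 3. With median-of-ratios scaling 10 rose and 7 fell. Of the 20, 3 fell without lung replicate 3 or without either tumor replicate.

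Genes that respond to ERK activity in many cell types also went both ways. Of 18 genes 5 rose and 9 fell, beside 31.6% and 27% of all tested rows. Their median was -1.21, and it was -0.66 without tumor replicate 2. When libraries were centred on the pan-leukocyte markers 15 were called higher, beside 72.5% of all tested rows. Etv4, a transcription factor of the PEA3 group, was at 0.450, 1.22 and 0.828 TPM in lung and at 65.4 and 45.1 TPM in tumor, a rise of 66.4-fold (4.94 ± 0.28, adjusted p = 0.000901). Its lung mean was under 1 TPM, so it entered the test only through its tumor values. Ccnd1, which encodes cyclin D1, was at 9.56, 7.003 and 7.20 TPM in lung and at 269 and 206 TPM in tumor (4.74 ± 0.21, adjusted p = 0.000901). Jun, Myc and Etv5 also rose, by 0.66, 1.41 and 1.62. Each of these 3 calls ended when lung replicate 1 or either tumor library was left out (adjusted p = 0.0574 to 0.235), and those of Jun and Etv5 also without lung replicate 2 (adjusted p = 0.102 and 0.135).

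Among the lower genes, Fosl2, a Fos family member, was at 508, 621 and 602 TPM in lung and at 34.5 and 71.3 TPM in tumor (-3.51 ± 0.33, adjusted p = 0.0016, or 0.10 under the pan-leukocyte centring). Ier2, an immediate early gene, was at 379, 465 and 456 TPM in lung and at 107 and 135 TPM in tumor (-1.84 ± 0.19, adjusted p = 0.00173, or 1.78 under that centring). The number of risers was 2 without lung replicate 1 or tumor replicate 3, and 3 without tumor replicate 2 and with no filter. These genes also answer to signals other than the ERBB receptors, and pathway activity was not measured.

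**Figure D4:**
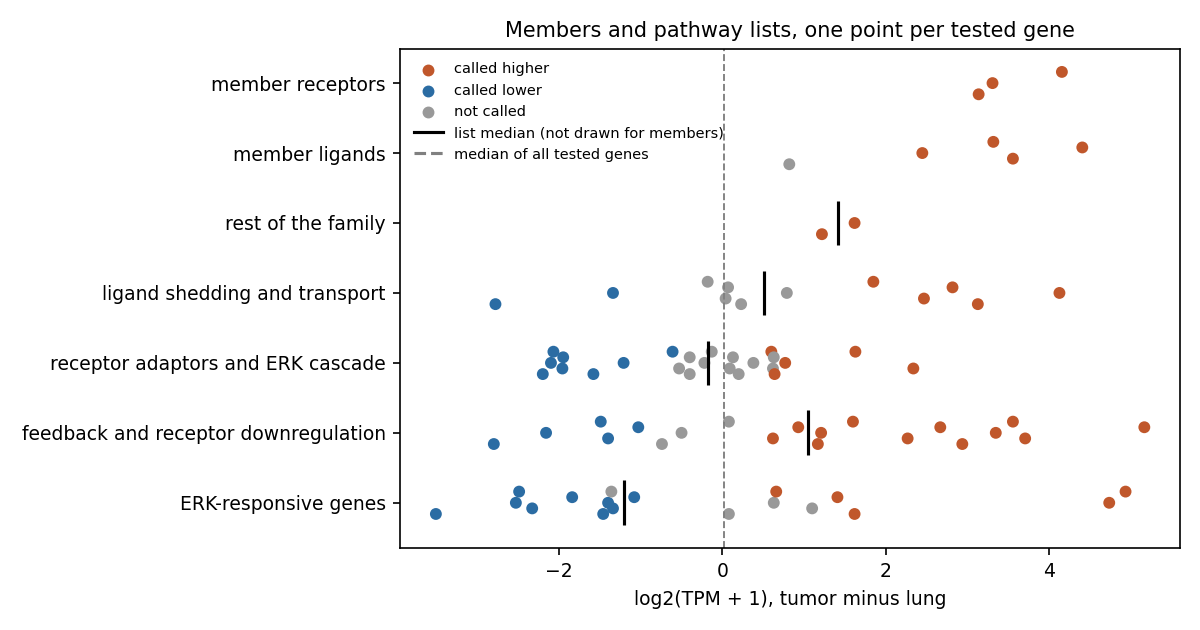
Difference in log2(TPM + 1), tumor minus lung, for each tested gene of the members and 5 lists, orange if called higher, blue if called lower and grey if not called; black ticks are list medians and the dashed line is the median of all tested genes, 0.018. Member receptors lie between 3.14 and 4.16, while the ERK-responsive genes reach from -3.51 to 4.94 around a median of -1.21, which was -0.66 without tumor replicate 2.

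The genes whose pattern was most like that of Hbegf, the highest member in both tissues, were found by the Euclidean distance of log2(TPM + 1) over the 5 libraries. They were Wwc1 (distance 0.37), Ddr1 (0.638), Rhbdf1 (0.673), Rai14 (0.691) and Ccn1 (0.729). Wwc1, which encodes the scaffold protein KIBRA, was at 1.64, 0.836 and 1.43 TPM in lung and at 49.1 and 42.1 TPM in tumor. With 5 libraries in 2 groups, the distance mainly ranks genes by their level in each tissue.

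Relative to the epithelial markers, the ligand sum was lower in both tumor libraries than in any lung library. The receptor sum was just below every lung library in tumor 2 and near the low end of the lung range in tumor 3. Per 1000 TPM of epithelial markers the receptor sum was 13.7, 12.8 and 7.44 TPM in lung and 7.41 and 7.96 TPM in tumor. The ligand sum was 19.7, 29.8 and 32.8 TPM per 1000 in lung and 14.5 and 10.6 TPM in tumor. Hbegf stood at 7.39, 8.96 and 14.8 per 1000 in lung and at 7.41 and 6.56 in tumor, and Erbb2 at 5.13, 5.96 and 4.68 in lung and at 4.04 and 4.41 in tumor. Btc was at 4.36, 9.56 and 12.5 per 1000 in lung and at 0.547 and 0.270 in tumor, far below every lung library. Erbb3, at 1.48 and 1.70 in tumor, was also below every lung library (2.34 to 3.31). Not every member was. Egfr, at 1.89 and 1.85 in tumor, lay within its lung range of 0.411 to 5.61. Areg and Ereg lay within theirs in tumor 2 (3.63 and 1.10) and below them in tumor 3 (1.53 and 0.451). These ratios were not tested, and the cells that made the transcripts were not identified.

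**Figure D5:**
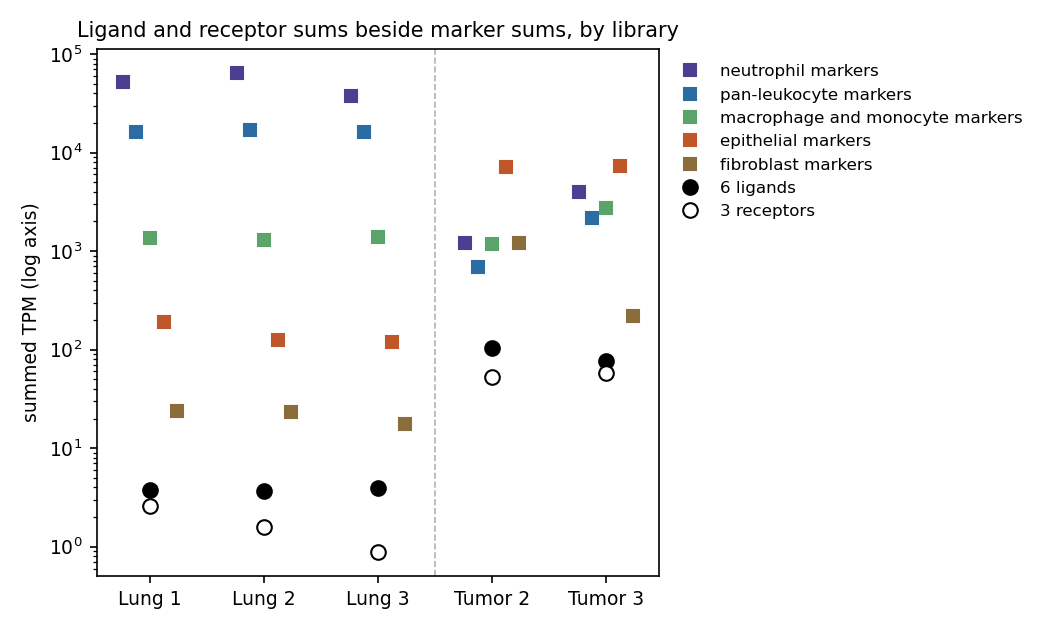
Summed TPM on a log axis of the 6 ligands (filled circles), the 3 receptors (open circles) and 5 marker lists (squares, shifted sideways for legibility) in each library. The ligands, receptors, epithelial and fibroblast markers are higher in both tumor libraries than in any lung library, the neutrophil and pan-leukocyte markers are lower, and the macrophage and monocyte markers, at 1291 to 1376 TPM in lung, lie below that range in tumor 2 and above it in tumor 3.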

How the data were processed

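RNA of sorted cells was measured in 3 lung and 2 tumor libraries. The authors ran Salmon 0.9.1 against transcripts of GENCODE mouse M24 and deposited TPM per gene, per the design text of the series. Reads shared by similar transcripts are split by Salmon's model, and TPM keeps no depth, so no counting error or count test was possible. The authors' deposited p-values and false discovery rates were used only to describe their own calls. Groups follow the labelled tissue, and replicate numbers follow the titles.

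Of 55276 rows, 26 with spreadsheet dates in place of symbols (0.065% to 0.0826% of TPM) were left out. log2(TPM + 1) of all 5 libraries was fitted in R 4.3.3 with limma 3.58.1 and its intensity trend, for the 16387 rows with a mean of at least 1 TPM. Calls needed an adjusted p under 0.05 (two-sided, Benjamini-Hochberg over all tested rows) and at least 1.5-fold. The steps were tested on simulated data. Sums were compared by an exact permutation test.

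The members, pathway lists and marker lists were chosen with earlier results of these data known. All members are named, and of each pathway list the 4 tested genes with the smallest p, of which 1 is not reported here. The 5 genes nearest Hbegf by distance passed over predicted genes, pseudogenes and microRNAs. Adam17, Adam10, Rhbdf2, Rhbdl2, Adam8, Cbl, Cblc and genes named to complete a count of 5 or fewer were chosen after their values were seen. Coordinates are from GENCODE M21 (GRCm38), matched by symbol, and upstream sequences from RefSeq (GRCm38.p6). Bases inside the GENCODE gene were left out of the printed sequence. Alternatives were a pseudocount of 0.1 TPM, no filter and a filter of 5 TPM, median-of-ratios scaling, scaling without mitochondrially encoded genes, centring on the pan-leukocyte markers, limma without trend, a replicate block by title number, and leaving out single libraries.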

Additional observations from a re-analysis of the deposited data

How the results depend on the processing

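The 7 members called higher stayed at 7 under most alternatives, were 8 when libraries were centred on the pan-leukocyte markers and without tumor replicate 3 (Btc joining), and were 5 with a filter of 5 TPM, which Ereg and Erbb3 did not pass. Each of the 7 kept its call in every alternative in which it was tested. Of all tested rows, 5178 were called higher and 4431 lower, 53.9% of calls being higher. Centring on the pan-leukocyte markers took the median difference over all genes from 0.018 to 3.072 and gave 11873 higher and 317 lower, 97.4% of calls being higher, and the log2 differences of the ligand and receptor sums went from 4.56 to 8.19 and from 5.16 to 8.79. It reversed Grb2 (2.03), Fosl2 (0.10), Ier2 (1.78), Rhbdf2 (2.10), Adam8 (0.84), Cbl (1.43), Ptpn1 (0.81), Ptprj (1.99), Lrig2 (2.14) and Dusp5 (2.19), and the sign of Adam17, which was not called, changed with median-of-ratios scaling (-0.11) and without tumor replicate 2 (-0.02, with a range of -0.02 to 0.17 over single libraries left out). Median-of-ratios scaling and scaling without mitochondrially encoded genes moved that median to -0.124 and 0.132. Leaving out 1 library at a time gave 6285 to 8848 calls, of which 2831 to 4179 were lower, with the smallest numbers without tumor replicate 2; leaving out a tumor library leaves 1, which is assumed to vary like the lung libraries. With a replicate block by title number, 7111 rows and the same number of members, 7, were called, and the calls of Nrg1, Nrg2, Dusp5, Shc1, Ptpn11, Nras, Jun and Myc ended (adjusted p = 0.0504 to 0.154), as did others, so that 2 of the adaptors and kinases, 7 of the restraining genes and 3 of the ERK-responsive genes were called higher. The labels do not tie a number to an animal. Across genes, the deviations of same-numbered libraries correlated at 0.00343 and 0.0833. Those of differently numbered libraries correlated at 0.0820, -0.0820, -0.00343 and -0.0833. With 2 tumor libraries, the deviations of 1 mirror those of the other, and 2 shared numbers are too few, so these values cannot show pairing. TPM gives no depth, so the precision of values under 1 TPM, which include most lung values of the members, is unknown.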
